A study of Mus musculus with 21 samples.

Results

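The genes described here are the translation initiation and elongation factors, taken as every gene row whose symbol begins with Eif and a digit from 1 to 6, or with Eef1 or Eef2. Of the 23827 rows of each expression file 67 had such a symbol, Eif2s3x and Eif2s3y were left out, and 65 remained. Eif2c1, Eif2c2, Eif2c3 and Eif2c4 carry the older symbols of the Argonaute genes Ago1 to Ago4, which act with small RNAs and are not translation factors. These 4 entered by their names and are described last, which leaves 61 translation factors.

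Protein synthesis starts when eIF2 brings the initiator tRNA to the small ribosomal subunit, eIF3, eIF1 and eIF1A hold that subunit ready, and the eIF4 proteins bind the mRNA cap and unwind the leader. eIF5 and eIF5B then release the factors and join the large subunit, after which eEF1A delivers each aminoacyl-tRNA and eEF2 moves the ribosome on by a codon. The step is controlled by kinases and by repressors: kinases phosphorylate eIF2 and so block its exchange factor eIF2B, and the eIF4E binding proteins hold the cap binding protein away from the scaffold eIF4G. Many mRNAs of the translation apparatus begin with a tract of pyrimidines, the TOP motif, through which the mTOR pathway sets their translation.

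The data were RNA sequencing of forebrain and kidney of mouse embryos at embryonic day 14.5, in 21 samples of 7 groups with 3 replicates each, and every group carried Gt(ROSA)26Sor-mCherry-Rpl10a+/-, an allele made in 1 targeted stem cell clone that gives a ribosomal protein tagged with mCherry under the CAGGS promoter once Cre has acted. Sox2Cre+/-;Gt(ROSA)26Sor-mCherry-Rpl10a+/- embryos, in which Cre acts throughout the embryo proper, gave the transcriptome, that is total RNA, and the translatome, that is RNA pulled down with the tagged ribosomes, of brain and of kidney. Cdh5CreERT2+/-;Gt(ROSA)26Sor-mCherry-Rpl10a+/- embryos, whose Cre is induced by tamoxifen given to the dam, gave the translatome of brain and of kidney endothelial cells (EC), and Emx1Cre+/-;Gt(ROSA)26Sor-mCherry-Rpl10a+/- embryos gave that of the Emx1-lineage of the dorsal forebrain. By the paper's methods a sample could hold the tissue of only 1 embryo, and a transcriptome and a translatome of the same number came from the same tissue sample. In RNA of whole tissue, fewer cells of a type and less RNA per cell cannot be told apart.

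Depth ran from 21760652 to 79231692 reads per sample. The summed RPKM (reads per kilobase of transcript, scaled to the depth of the library) of 6 endothelial markers was 2337 to 2483 in the brain EC samples and 122 to 142 in the brain translatome, and 1519 to 1783 against 277 to 297 in kidney. Of 6 neural markers, however, a summed RPKM of 347 to 455 was left in the brain EC samples against 1841 to 1876 in the brain translatome. The brain EC, kidney EC and Emx1-lineage libraries were each sequenced in a run of their own, so run and group cannot be told apart there.

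All but 2 of the 65 genes had a mean above 1 RPKM in at least 1 group. Eif3j1 had no read in any library, and Eif4e1b, an eIF4E relative of the germ line, had 1 read in all. Eif3j2, nearly identical to Eif3j1, was counted over only 40 bases with 4 to 44 reads per library, so its values are uncertain. Processed gene copies and close paralogs can also share reads with Eef1a1, Eif4a1, Eif1 and Eif5a, and the setting for strand during counting was not given, which leaves genes with an antisense or read-through partner less certain. Eif4ebp3 and Eif4e3 each overlap a read-through gene model on their own strand.

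Together the 65 genes took 1.55 to 1.60% of the reads of the brain transcriptome and 1.71 to 1.74% of the brain translatome. The Emx1-lineage lay at 1.73% in all 3 samples. In kidney the order of the pair was turned round, with 1.88 to 1.91% of total RNA reads and 1.74 to 1.79% of translatome reads. The EC samples held the least of their organ, 1.24 to 1.27% in brain and 1.52 to 1.56% in kidney, and the ranges of these groups did not overlap apart from kidney EC with the brain transcriptome and the Emx1-lineage and kidney translatome with the brain translatome.

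Levels per length differed widely between the genes, as the plot of all genes by role shows. Eef1a1 (chromosome 9, 78478449 to 78489151, minus strand, build GRCm38), which encodes the main eEF1A, had the highest mean at 1076 RPKM over the 21 samples and ranged from 709.5 to 1595 RPKM. Eef2 (chromosome 10, 81176631 to 81182498, plus strand) followed at 705.6 RPKM, with a range of 543.5 to 885 RPKM. In the kidney translatome Eif5a, whose product helps stalled ribosomes to go on, lay at 663.5, 727.4 and 742 RPKM and Eef2 at 631.8, 669 and 655.1 RPKM, so that these ranges overlapped. By role the median member level was 96.0 RPKM for the 14 eIF3 genes, 53.5 for the 10 elongation genes, 53.0 for the 12 eIF4 genes of cap binding, helicase and scaffold, 49.4 for the 6 genes of start codon selection and subunit joining, 27.9 for the 4 of initiator tRNA delivery, 26.1 for the 5 eIF2B subunits and 10.0 for the 4 eIF2 kinases.

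**Figure D1:**
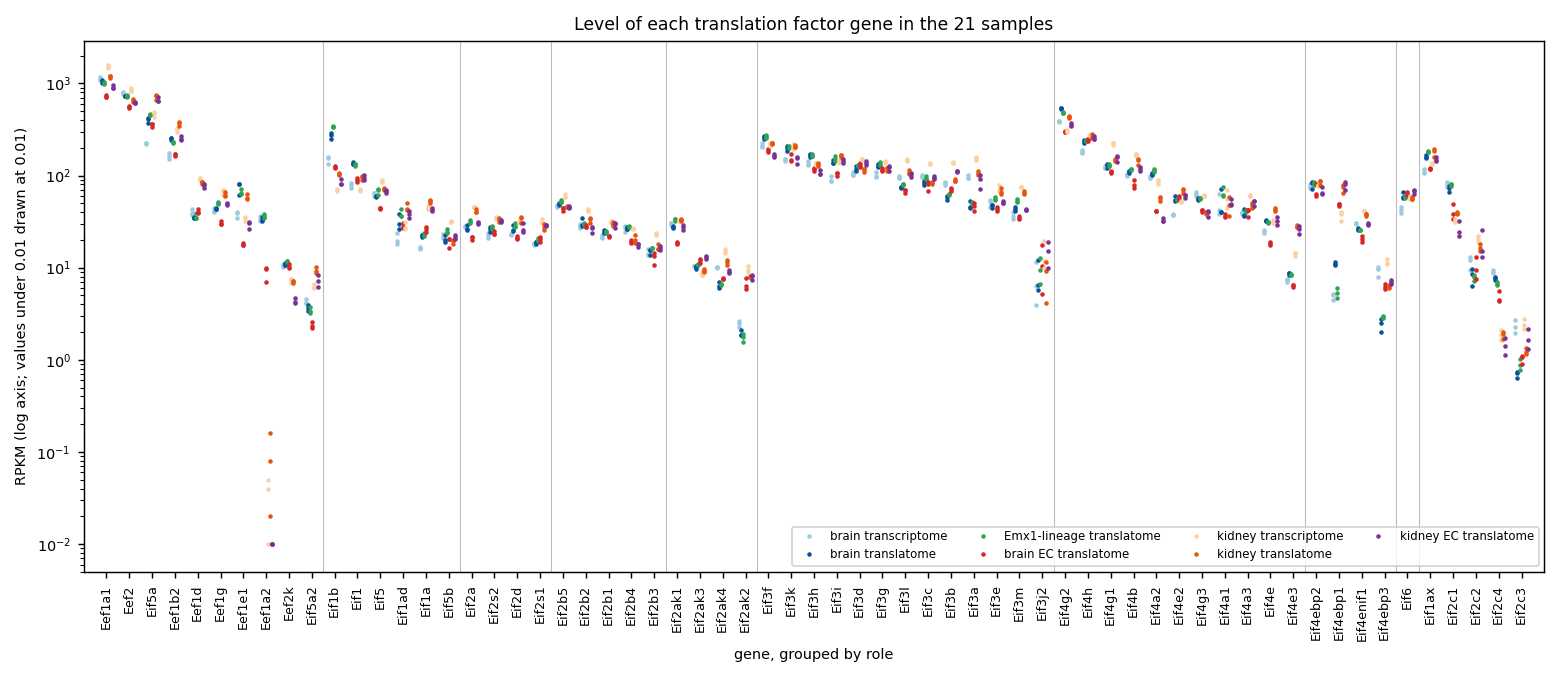
RPKM (log axis) of the 63 genes with a mean over 1 RPKM in a group, in each of the 21 samples, with genes set by role and separated by grey lines. Eef1a1 stands highest at 709.5 to 1595 RPKM, while the kidney points of Eef1a2 lie at or under 0.16 RPKM.

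The highest group mean was a median of 2.02 times the lowest over the 63 genes, and for 30 of them it was under 2-fold. The steadiest were Eif4ebp2, an eIF4E binding protein, at 1.25-fold and Eif3g at 1.38-fold. Eef1a2, Eif4ebp1, Eif2c4, Eif2ak2, Eif1b, Eif4ebp3, Eif4e3 and Eef1e1 were the 8 whose group means differed over 4-fold. The kidney transcriptome held the highest mean for 31 of the 63 genes and the brain EC samples the lowest for 26, and for none the highest. The same count over all rows was not made. RPKM is scaled to mRNA reads, unlike the tests. That scaling moved the median log2 fold change of all rows by -0.29 in brain EC against the brain translatome. For brain against kidney transcriptome the move was -0.19. Eef1a1 and Eef2 together took 27.6 to 29% of the genes' reads in the 6 transcriptome samples and 22.8 to 24.3% in the 15 translatome samples, without overlap.

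Pyrimidine runs, the letters of which a TOP motif is made, are shown for Eef1a1, the most abundant member, and for some eIF3 mRNAs. These were among those called as higher or lower in the brain translatome, described further on. Eif3i, Eif3g and Eif3h, also called there, are not shown. Each line gives 30 bases of RefSeq on GRCm38.p6, 5′ to 3′, that hold the longest run of pyrimidines beginning with C within 50 bases of the annotated start, with the run in capitals.
Eef1a1: tggctccgCCCTCTTCCCgagggtggggga
Eif3f: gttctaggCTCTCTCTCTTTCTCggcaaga
Eif3k: tgaaagcgCCTTTCCCTTTgccttccttgt
Eif3l: ttcttccgCTCTCTCCCacgggcttctgga
Eif3a: atcacgtggttCCTTCCTTTCCgtctctgg
Eif3b: cgcggtgaCTTCTgggagtcggaagcaggg
The windows lie at chr9:78481708-78481737 (minus), chr7:108934403-108934432 (plus), chr7:28981854-28981883 (minus), chr15:79075219-79075248 (plus), chr19:60790644-60790673 (minus) and chr5:140419299-140419328 (plus), in that order. The run was 15 bases in Eif3f, 11 in Eif3k and Eif3a, 10 in Eef1a1, 9 in Eif3l and 5 in Eif3b. It began 13 bases past the annotated start in Eif3k and 31 in Eif3a, so that those windows do not hold that start, and within 5 bases of it in the others. A run of at least 9 C or T bases, starting with C on the gene's strand within 50 bases of the annotated start, was present in 16 of the 50 genes with an entry (32%) and in 22.7% of 27025 promoters. Such a run describes the letters in the window, and the annotated start need not be the start used in these cells.

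The first comparison asked which factor mRNAs were more or less abundant in ribosome-bound than in total RNA of the same organ. In brain 19 of 64 genes tested were higher and 6 lower in the translatome. The threshold throughout was an adjusted p of 0.001 (edgeR's quasi-likelihood test with Benjamini-Hochberg adjustment over all rows). Over all rows 18.6% were higher and 18.5% lower, and over the rows with a mean above 5 RPKM, where 61 of the 65 genes lie, 32.8% and 25.3%. In kidney 14 of 63 were higher and 18 lower, where 14.9% and 15.8% of all rows and 27.2% and 25.4% of those above 5 RPKM were called. Their median, on the log2 scale, was 0.09 for brain and -0.09 for kidney, against -0.01 and -0.03 over all rows. With the tissue sample as a block, 22 rose and 10 fell in brain, and 16 rose and 28 fell in kidney.

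Of the 6 genes of start codon selection and subunit joining, the 4 genes Eif1, Eif1a, Eif1ad and Eif1b rose in both organs, as did Eif1ax. Eif1b, a close relative of the start codon gatekeeper Eif1, lay at 134.2, 158.6 and 154.9 RPKM in the brain transcriptome and at 276.2, 250.6 and 291.8 RPKM in the brain translatome. These ranges were far apart, with a log2 fold change of 0.90 (SE 0.07, adjusted p = 1.0e-07). In kidney Eif1b went from 69.0, 70.8 and 67.9 RPKM to 104.9, 106.1 and 100.4 RPKM, a log2 fold change of 0.58 (SE 0.04, adjusted p = 8.8e-07). Eif1 rose by 0.82 and 0.44 on the log2 scale, and Eif1ad by 0.66 and 0.68. Eif1ad did not pass in brain by DESeq2 or without brain translatome replicate 1, nor in either organ with sequencing run in the fit. The kidney value of Eif1a, 0.24, was lost in 5 of the 6 fits that left out 1 library and with sequencing run in the fit. The GTPase gene Eif5b and the GTPase activator gene Eif5 fell in kidney, with log2 fold changes of -0.72 and -0.31, and had -0.06 each in brain, where neither passed. The difference between the organs passed for Eif5b and not for Eif5, whose kidney call was lost with sequencing run in the fit.

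Of the 10 elongation genes 3 rose in each organ. None was called lower in the main edgeR fit. At an unadjusted p under 0.05, 2 in brain and 3 in kidney were lower, and DESeq2 called 1 and 2. Eef1d was called lower in brain with RLE size factors and with reads on mRNA rows as library size. It also passed in both organs with the tissue sample as a block. Eif5a rose from 222.4, 223.4 and 225.6 RPKM to 421.1, 373.1 and 413.1 RPKM in brain (log2 fold change 0.89, SE 0.06, adjusted p = 1.2e-08) and by 0.57 in kidney. Eef1e1, which encodes a small scaffold protein of the tRNA synthetase complex rather than an elongation factor, stood at 39.4, 34.5 and 40.1 RPKM in total brain RNA and at 80.1, 62.0 and 81.1 RPKM on ribosomes. Its log2 fold changes were 1.00 and 0.78, and in both organs every translatome sample lay above every transcriptome sample. Eef1b2, an exchange factor of eEF1A, rose in brain (0.65) and had a value of 0.21 in kidney that did not pass. Eef1a1 and Eef2 were not called in either organ: their log2 fold changes were -0.06 and -0.10 in brain, and -0.36 and -0.39 in kidney with adjusted p of 2.0e-03 and 1.1e-03. By DESeq2 and under the tissue sample block both kidney values passed as lower.

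Among the eIF4 genes Eif4e, Eif4e2 and Eif4g2 rose in both organs. Eif4g2, which lacks the eIF4E binding part of eIF4G and was the most abundant eIF4 mRNA, lay at 386.6, 388.3 and 381.1 RPKM in the brain transcriptome and 532, 541.3 and 538.8 RPKM on ribosomes. It changed by 0.51 on the log2 scale in brain and by 0.50 in kidney, the latter lost without kidney translatome replicate 1 or 2 and with sequencing run in the fit. Eif4e, the cap binding protein, changed by 0.42 and 0.43, and Eif4e2, a weak cap binder, by 0.53 and 0.37. Eif4e3, another cap binding relative (chromosome 6, 99625135 to 99666771, minus strand), went from 13.5, 14.6 and 14.4 RPKM to 27.6, 27.8 and 29.4 RPKM in kidney, a log2 fold change of 1.00 (SE 0.05, adjusted p = 1.8e-07). In brain its value was 0.27 and did not pass. Eif4h, a cofactor of the helicase, rose in brain by 0.43. The scaffolds Eif4g1 and Eif4g3 and the helicases Eif4a2 and Eif4a3 fell in kidney and did not pass in brain.

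The eIF4E binding proteins moved in opposite directions. Eif4ebp1, the best known target of mTOR among them (chromosome 8, 27260329 to 27276674, plus strand), lay at 4.42, 5.21 and 5.08 RPKM in the brain transcriptome and at 10.7, 11.0 and 11.5 RPKM on ribosomes. Its kidney values were 32.3, 39.7 and 38.0 RPKM in total and 64.5, 74.3 and 78.6 RPKM in ribosome-bound RNA. The log2 fold changes of 1.20 (SE 0.10, adjusted p = 2.4e-07) and 0.98 (SE 0.09, adjusted p = 6.0e-06) were the highest and second highest among the genes called in brain and kidney. Eif4ebp3 fell from 7.96, 10.2 and 9.57 RPKM to 2.78, 2.50 and 2.02 RPKM in brain, a log2 fold change of -1.89 (SE 0.14, adjusted p = 3.9e-08), and by 0.90 on the log2 scale in kidney. Eif4ebp2 did not pass in either organ, at 0.07 and 0.13.

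The subunits of eIF3, which act together in 1 complex, did not move together. In brain Eif3i, Eif3k, Eif3g, Eif3f and Eif3h rose by 0.64, 0.43, 0.36, 0.32 and 0.31 on the log2 scale, while Eif3a, Eif3b and Eif3l fell by 0.99, 0.49 and 0.33. Eif3f was lost in 5 of the 6 fits that left out 1 library, and Eif3h and Eif3l with sequencing run in the fit. Eif3i, a small propeller subunit, went from 86.3, 98.1 and 88.2 RPKM to 145.6, 136 and 135.8 RPKM. Eif3a, the largest subunit, went from 101.8, 93.3 and 92.9 RPKM to 52.4, 44.3 and 45.1 RPKM. The 2 mRNAs were thus at like levels in total RNA, and every ribosome-bound sample held far more Eif3i than Eif3a per length. In kidney none of the 13 tested rose in the main edgeR fit, 1 was higher at an unadjusted p under 0.05 and DESeq2 called 1. The gene called by DESeq2 was Eif3i, which also passed in kidney with the tissue sample block and in 1 fit of all 21 samples. That block also added Eif3m in kidney and Eif3c, Eif3d and Eif3m in brain. Eif3a, Eif3b, Eif3c, Eif3d, Eif3g and Eif3l fell in kidney. Eif3g was called in both organs with opposite signs, 0.36 and -0.24, the kidney value being lost in 4 of the 6 fits that left out 1 library. The kidney call of Eif3d was lost with sequencing run in the fit.

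**Figure D2:**
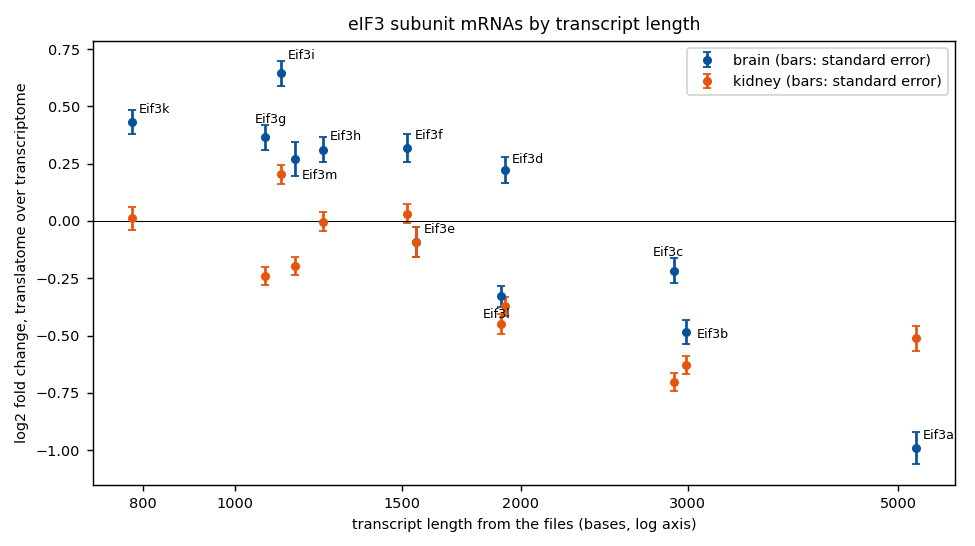
Log2 fold change of translatome over transcriptome (points, bars are standard errors) for 12 eIF3 subunit mRNAs against transcript length (log axis) in brain (blue, labelled) and kidney (orange). The short Eif3i and Eif3k stand highest and the long Eif3a lowest in brain, and the kidney points of most subunits lie below the brain points.

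The order of the eIF3 subunits followed transcript length. Across the 12 subunits with usable counts the log2 fold change and the log10 length had a Pearson r of -0.909 and a Spearman rho of -0.916 in brain, and -0.784 and -0.762 in kidney. With sequencing run in the fit these were -0.918 and -0.937 in brain, and -0.768 and -0.699 in kidney. Over 57 translation factors the values were -0.373 and -0.486 in brain, and -0.258 and -0.286 in kidney. The relation was not particular to these genes, since it was -0.429 and -0.583 over 9794 rows above 5 RPKM in brain and -0.184 and -0.376 over 9992 in kidney. Genes are not independent replicates, all points share the same 6 libraries, and the part of length in the fold changes was not tested.

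In the main edgeR fit the TOP list did not rise or fall as a whole. Of its 10 members (Eef1a1, Eef1a2, Eef1b2, Eef1d, Eef1g, Eef2, Eif3e, Eif3f, Eif3h and Eif4b) 3 were higher in the brain translatome and none passed in kidney by edgeR, against 16 higher and 5 lower in brain and 13 higher and 17 lower in kidney among the factors off the list. At an unadjusted p under 0.05 the list had 1 higher and 4 lower in kidney, and DESeq2 called 1 and 3. In brain the median on the list was 0.05 and off it 0.13 on the log2 scale, and in kidney -0.08 and -0.12. Under the tissue sample block Eef1a1, Eef1d, Eef2 and Eif4b passed as lower in kidney and Eef1b2 as higher. Eef1d also passed in brain under that block.

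None of the 4 genes of initiator tRNA delivery passed in either organ in the main edgeR fit or by DESeq2. At an unadjusted p under 0.05, 2 were higher in brain and 2 lower in kidney. The 5 eIF2B subunits were called in neither of these fits in brain, where 1 was higher at an unadjusted p under 0.05. Their median log2 fold change there was 0.10, whereas Eif2b2, Eif2b3 and Eif2b5 fell in kidney by 0.36, 0.46 and 0.38. Of the eIF2 kinases only Eif2ak4, the GCN2 kinase that senses uncharged tRNA, was called, with -0.63 in brain and -0.40 in kidney. The kidney calls of Eif2ak4 and Eif2b3 were lost with sequencing run in the fit. Under the tissue sample block Eif2s2 in brain, Eif2s1 and Eif2b4 in kidney and Eif2ak2 in both organs also passed. Eif6, which keeps the large subunit from joining too early, rose by 0.54 in brain and had -0.04 in kidney.

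Of the genes called, 11 were higher in both organs, which is 11 of 19 in brain and 11 of 14 in kidney, and 6 were lower in both, all 6 of the brain list and 6 of 18 in kidney. Over all rows called the same way in both organs, the shares were 59.3% of the brain and 74.7% of the kidney calls for higher, and 59.3% and 70% for lower. With sequencing run in the fit 8 of the genes were higher in both organs and 3 lower in both. Only Eif3g was called with opposite signs.

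The next comparison asked whether the translatome to transcriptome fold change differed between the organs, tested as an interaction over 12 samples. The fold change was higher in brain for 11 of 64 genes and lower for 3, where 2.35% and 4.12% of all rows and 4.42% and 7.04% of those above 5 RPKM were called. The 11 were Eif4a2, Eif4g1, Eif5b, Eif3g, Eif3d, Eif6, Eif3c, Eif2b5, Eif4h, Eif4g3 and Eif3i, and the 3 were Eif4ebp3, Eif5a2 and Eif4e3. The median interaction was 0.24 over the 64 genes and -0.00 over all rows. With sequencing run as a term in the fit 2 were higher and 2 lower, namely Eif4a2 and Eif3g against Eif4e3 and Eif5a2. With the tissue sample block 25 were higher and 6 lower. Without brain transcriptome replicate 3, or without kidney translatome replicate 2, 7 were higher. Of the 12 fits that left out 1 library, 11 lost Eif4h, 10 lost Eif3i, 9 lost Eif4ebp3, 8 lost Eif4g3 and 3 lost Eif6, and none lost the others.

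Eif4a2, a paralog of the helicase Eif4a1 (chromosome 16, 23107444 to 23114136, plus strand), showed the largest positive difference. It lay at 93.3, 98.2 and 94.3 RPKM in the brain transcriptome and 107.6, 101.2 and 104 RPKM in the brain translatome, but at 86.3, 81.2 and 88.6 and then 57.5, 58.7 and 52.5 RPKM in kidney. The log2 fold changes were -0.18 and -0.99, and the interaction was 0.79 (SE 0.07, adjusted p = 2.6e-06), with 0.90 under the term for run. The scale mattered for this gene: by mean RPKM the log2 ratios of translatome to transcriptome were 0.13 in brain, where the RPKM of the groups did not overlap, and -0.60 in kidney. Reads and RPKM together imply a length of 2788 to 2856 bases in the brain and 3038 in the kidney transcriptome, but of 2234 to 2334 in the translatomes, so the direction in brain depends on the scale, and the cause of this was not tested. Eef1d and Eif4e2 were the other genes whose implied length differed by over 10% between groups. Small nucleolar RNAs lie in introns of Eif4a2. Eif5a2, the less abundant eIF5A gene, went the other way, from 4.58, 4.10 and 4.16 RPKM to 3.42, 3.67 and 3.91 RPKM in brain and from 6.61, 6.18 and 6.00 RPKM to 9.19, 8.83 and 10.2 RPKM in kidney. Its interaction was -0.80 (SE 0.12, adjusted p = 1.5e-04), and -1.02 with run in the fit. For Eif4e3 the interaction was -0.74, and -0.86 with run.

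**Figure D3:**
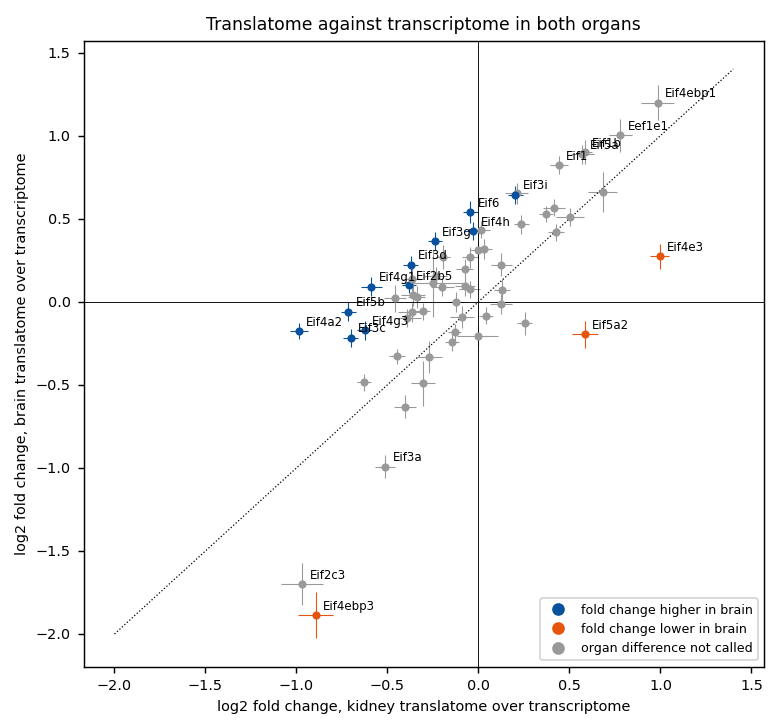
Log2 fold change of translatome over transcriptome in kidney (x axis) and brain (y axis) for each gene over 1 RPKM but Eef1a2 and Eif3j2, with standard errors, blue where the fold change was higher in brain, orange where it was lower and grey where the difference was not called. Eif4ebp1 and Eef1e1 stand high in both organs and Eif4ebp3 and Eif2c3 low in both, while Eif4a2 and Eif4e3 leave the dotted line of equal fold change in opposite directions.

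Of 29 other genes of the pathway, among them mTOR signalling, poly(A) binding, release and recycling factors, 10 were higher and 7 lower in the brain translatome, and 9 and 10 in kidney. Mtor itself had the lowest value in both, with log2 fold changes of -2.21 and -1.36, followed by Gcn1l1, the partner of GCN2, at -1.60 and -1.12. Rheb, the activator of mTOR, rose by 0.96 and 0.92, and the recycling factor Denr by 1.10 and 0.83. Of 10 mitochondrial translation factors 3 were higher and 2 lower in brain, and Guf1, Gfm2 and Gfm1 were lower in kidney. Guf1, the mitochondrial relative of bacterial LepA, lay lowest at -1.79 and -1.10. Beside the counts of these lists, 32.8% of rows above 5 RPKM were higher and 25.3% lower in brain. In kidney these shares were 27.2% and 25.4%. Over all rows they were 18.6% and 18.5% in brain, and 14.9% and 15.8% in kidney.

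The transcriptomes of the organs were then compared with each other. Of 63 genes tested 10 were higher in brain and 34 in kidney, where 27.2% of all rows were higher in brain and 26.3% in kidney, and 35.3% and 32.9% above 5 RPKM. The median log2 fold change of brain over kidney was -0.28 against -0.02 over all rows. With the reads on mRNA rows as library size, which moved the median of all rows by -0.19, the counts were 5 and 41. No sequencing run held transcriptomes of both organs, so run and organ cannot be told apart. The summed RPKM of 5 erythroid markers was 184 to 429 in the brain and 354.5 to 665 in the kidney transcriptome, and its part in the result was not tested.

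The genes higher in kidney came from nearly every role. All 4 genes of initiator tRNA delivery, 10 of 13 eIF3 genes and 3 of 5 eIF2B genes were lower in brain. Of these calls Eif2d was lost in 6 of the 6 fits that left out 1 library. Eif3k was lost in 5 of them, Eif3e in 4, and Eif3g and Eif2b1 in 2 each. Eif3m had the lowest eIF3 value, with 33.8, 39.8 and 36.3 RPKM in brain and 74.5, 75.0 and 75.8 RPKM in kidney, a log2 fold change of -0.85 (SE 0.06, adjusted p = 1.6e-07). Eif3h was higher in brain at 0.22, a call lost under the scaling to mRNA reads and in 5 of the 6 fits that left out 1 library. Eif5a lay at -0.90, Eef1b2 at -0.77 and Eif1a at -1.26.

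The largest differences were in paralogs and in regulators. Eef1a2, the eEF1A form of neurons and muscle (chromosome 2, 181147653 to 181157014, minus strand), had 2810, 3886 and 3855 reads in the brain transcriptome and 4, 0 and 3 in the kidney transcriptome. The kidney translatome held 8, 4 and 1 reads and the kidney EC samples 0, 1 and 0, so that no fold is given. Eif4ebp1 was lower in brain by a log2 fold change of -2.71 (SE 0.10, adjusted p = 8.7e-10). Eif2ak2, the PKR kinase that binds double-stranded RNA (chromosome 17, 78852564 to 78882573, minus strand), had 2.53, 2.64 and 2.29 RPKM in brain and 9.42, 9.04 and 10.4 RPKM in kidney, a log2 fold change of -1.76 (SE 0.08, adjusted p = 5.6e-09). Eif1b was higher in brain by 1.29, Eef2k, the kinase that inhibits eEF2, by 0.73, and Eif2ak3, the PERK kinase of the endoplasmic reticulum, by 0.48, the last lost under the scaling to mRNA reads.

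The EC translatomes were compared with the translatomes of their organs to ask which factor mRNAs differed in endothelial cells. In brain 12 of 64 were higher and 7 lower, where 24.8% and 21.4% of all rows and 33.7% and 29.2% above 5 RPKM were called. In kidney 13 of 63 were higher and 2 lower, where 16.7% and 15.0% of all rows and 27.6% and 16.5% above 5 RPKM were called. These splits turned with the scaling: with reads on mRNA rows as library size, which moved the median of all rows by -0.29 in brain and -0.36 in kidney, 3 were higher and 26 lower in brain, and 2 and 15 in kidney. In kidney the 13 dropped to 6 without EC replicate 1, and to 8, 7 and 7 without kidney translatome replicates 1, 2 and 3. The direction of a fold change smaller than that shift depended on the scaling.

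Eif4ebp1, Eif2ak2 and Eif4ebp3 rose in brain EC by amounts well above that shift. Eif4ebp1 lay at 48.7, 48.5 and 46.3 RPKM in brain EC and at 10.7, 11.0 and 11.5 RPKM in the brain translatome, with a log2 fold change of 2.40 (SE 0.08, adjusted p = 1.5e-11). In kidney it lay at 80.2, 84.0 and 69.4 RPKM in EC, which overlapped the 64.5 to 78.6 RPKM of the organ. Its log2 fold change of 0.46 was lost under mRNA scaling and in 5 of the 6 fits that left out 1 library. It was also lost with the replicate block, which here paired samples by number alone. Eif2ak2 had 5.84, 6.40 and 7.72 RPKM in brain EC and 1.86, 2.10 and 1.85 RPKM in the brain translatome, a log2 fold change of 2.07 (SE 0.11, adjusted p = 2.9e-09), and 0.35 in kidney, which did not pass. Eif4ebp3 rose by 1.62 in brain EC and had 0.53 in kidney.

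Other genes fell. Eef1e1 lay at 17.4, 18.3 and 17.7 RPKM in brain EC against 80.1, 62.0 and 81.1 RPKM in the forebrain as a whole, a log2 fold change of -1.77 (SE 0.10, adjusted p = 4.0e-09), and at -0.65 in kidney. Eef1a2 had 9.57, 6.97 and 9.89 RPKM in brain EC against 33.0, 32.5 and 35.2 RPKM in the brain translatome, a log2 fold change of -1.64. Neural markers were at 347 to 455 summed RPKM in the same EC samples, and the part of neural RNA in the Eef1a2 reads was not tested. Eif4a2 fell in both organs, from 107.6, 101.2 and 104 RPKM to 41.6, 41.0 and 40.9 RPKM in brain (log2 fold change -1.02) and from 57.5, 58.7 and 52.5 RPKM to 32.2, 34.2 and 31.9 RPKM in kidney (-0.37, lost without kidney translatome replicate 1 or 2 or without kidney EC replicate 1). Eif1b, Eif4g2 and Eif4e fell in brain by 0.86, 0.55 and 0.53 on the log2 scale.

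**Figure D4:**
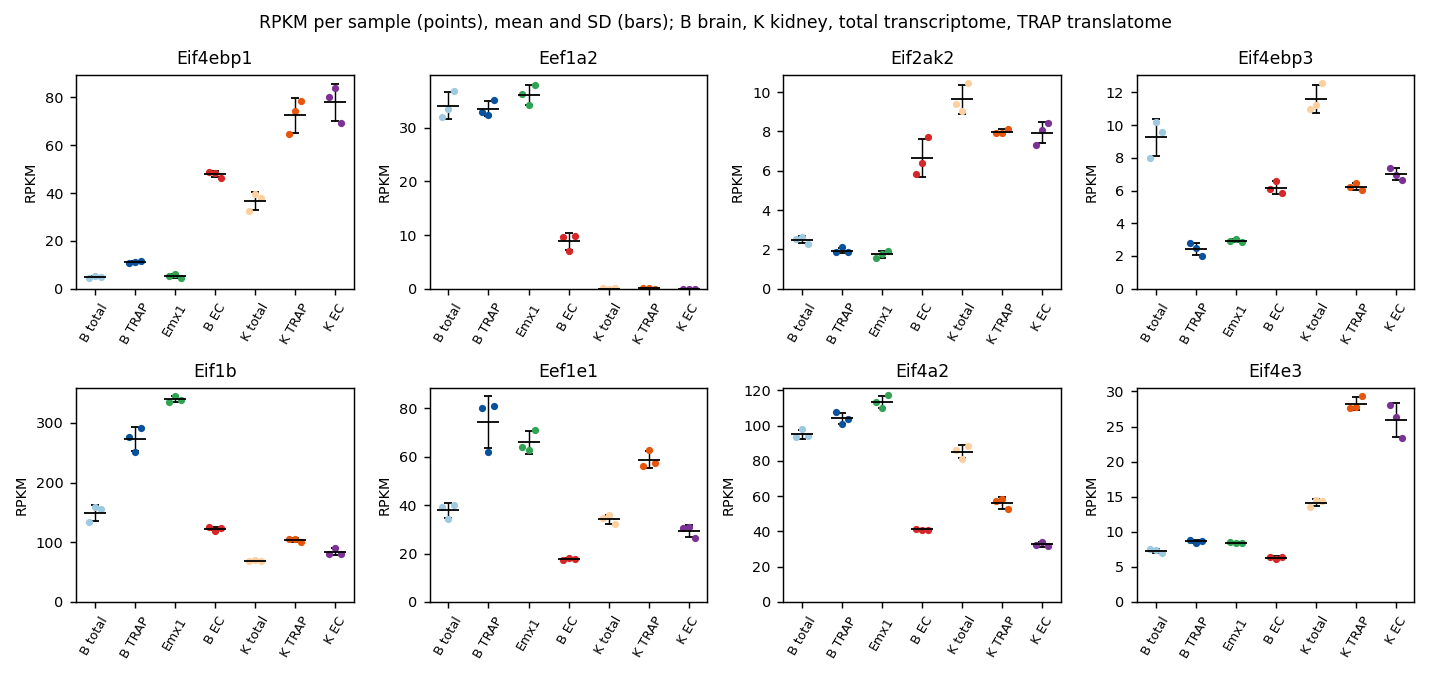
RPKM of 8 genes in each sample of the 7 groups (points), with the mean and SD of 3 samples (black), for transcriptome (total) and translatome (TRAP) of brain (B) and kidney (K), the Emx1-lineage and the endothelial cells (EC). Eif4ebp1 in brain EC, at 46.3 to 48.7 RPKM, lies above every other brain sample, and Eef1a2 is at or near 0 in every kidney sample.

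Of the 4 eIF2 kinases Eif2ak2, Eif2ak3 and Eif2ak4 rose in brain EC and Eif2ak1 did not pass. Eif2ak3 went from 10.2, 10.4 and 9.68 RPKM to 11.3, 12.2 and 12.3 RPKM in brain (log2 fold change 0.53) and from 9.78, 8.92 and 9.11 RPKM to 12.4, 13.2 and 13.4 RPKM in kidney (0.84, SE 0.07, adjusted p = 1.7e-06). The brain values of Eif2ak3 and Eif2ak4 did not pass under the scaling to mRNA reads. Eif3b and Eif3d rose in both organs with log2 fold changes of 0.60 and 0.42 in brain and 0.67 and 0.61 in kidney, and Eif6 with 0.36 and 0.60. The brain values of Eif3b, Eif3d and Eif6 and the kidney values of Eif3d and Eif6 also did not pass under that scaling. Of the 29 other pathway genes 10 were higher and 4 lower in brain EC, and 11 and 4 in kidney EC, with Mknk2, a kinase of eIF4E, at 1.64 and 0.94. Of the 10 mitochondrial factors 2 and 4 were higher, with Gfm1, a mitochondrial elongation factor, at 0.59 and 0.81. Beside these counts, 33.7% of rows above 5 RPKM were higher and 29.2% lower in brain EC. In kidney EC these shares were 27.6% and 16.5%. Over all rows they were 24.8% and 21.4% in brain EC, and 16.7% and 15.0% in kidney EC. The 2 lists were not counted under the scaling to mRNA reads.

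The difference between the organs in the EC fold change was called for 6 genes as higher in brain and for 7 as lower, where 16.5% and 8.6% of all rows and 23.2% and 14.7% above 5 RPKM were called. Eif4ebp1 (1.97, SE 0.12, adjusted p = 8.8e-10), Eif2ak2 (1.75), Eif4ebp3 (1.12), Eef2k, Eif2ak4 and Eif1a made up the former and Eef1e1 (-1.10), Eif1b (-0.89), Eif1, Eif4a2, Eif4g2, Eif4e and Eif5 the latter. The median was -0.19 over the genes and 0.16 over all rows. Of the 12 fits that left out 1 library, 9 lost Eif4e, 5 lost Eif2ak4 and 4 lost Eif5. Eif4e and Eif5 were also lost under mRNA scaling. Eif5, Eif2ak4 and Eif4g2 were lost with the replicate block, which here paired EC and organ samples by number alone.

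Against each other, brain EC had 4 genes higher and 24 lower than kidney EC among 63 tested, where 20.1% of all rows were higher and 16.9% lower, and 21.4% and 23.8% above 5 RPKM. The median log2 fold change was -0.30 against 0.01 over all rows. Under mRNA scaling 4 were higher and 26 lower. With the replicate block Eif2b1, Eif4b and Eif4g1 did not pass and Eif1ad did, which left 22 lower. Eif4e3 was at 6.43, 6.14 and 6.44 RPKM in brain EC and 28.1, 26.3 and 23.4 RPKM in kidney EC, a log2 fold change of -1.99 (SE 0.08, adjusted p = 6.7e-09). Eif5a2 followed at -1.58 and Eif5a at -0.93. Eef1a2, Eif2c4, Eef2k (1.29) and Eif1b (0.59) were the 4 higher in brain EC. The kidney translatome, which holds many other cell types, stood at 27.6 to 29.4 RPKM for Eif4e3 and the brain translatome at 8.41 to 8.78 RPKM, so that the organs differed in the same direction in the samples of the whole organ.

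The Emx1-lineage translatome was compared with the brain translatome. In these samples 5 Emx1-lineage markers summed to 884 to 942 RPKM against 423 to 441 RPKM, 3 markers of the ventral forebrain to 38.8 to 40.7 against 153 to 166, and the endothelial markers to 11.8 to 13.7 against 122 to 142. Of 64 genes 9 were higher and 1 lower, where 9.2% and 12.8% of all rows and 16.0% and 10.6% above 5 RPKM were called. Only 4 were higher under mRNA scaling, with at least 10 reads in 3 samples, or without Emx1-lineage replicate 1 or 3. Without brain translatome replicate 2 or 3, 5 were higher. The replicate block, which here paired samples by number alone, also left 4. Those that rose were Eif1b, Eif3m, Eif3e, Eif5b, Eif2ak1, Eif2a, Eef1g, Eif3c and Eif1ax, with log2 fold changes of 0.23 to 0.37. Of these, Eif5b, Eif2a, Eef1g, Eif3c and Eif1ax were lost under mRNA scaling, with at least 10 reads in 3 samples and with the replicate block. Eif2a, Eif3c and Eif1ax were each lost in 5 of the 6 fits that left out 1 library. Eif5b was lost in 4 of them, Eef1g in 3 and Eif3m in 1. Eif1b stood at 334.5, 344.7 and 338.7 RPKM against 276.2, 250.6 and 291.8 RPKM. Eif4ebp1 fell from 10.7, 11.0 and 11.5 RPKM to 5.36, 5.94 and 4.64 RPKM, a log2 fold change of -1.01 (SE 0.10, adjusted p = 1.8e-06). Across the brain translatomes Eif4ebp1 was thus lowest in the Emx1-lineage, intermediate in the whole forebrain and highest in EC, with no overlap between the 3 groups. Of the other pathway genes 5 were higher, among them Pdcd4, an inhibitor of eIF4A, at 0.49, and of the mitochondrial factors Mtif2 was higher at 0.43.

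The 3 cell populations were also set against the transcriptomes, since the reference decides what a fold change holds. Brain EC had 20 genes higher and 9 lower than the brain transcriptome (26.8% and 24.3% of all rows, 38.9% and 29.4% above 5 RPKM). Kidney EC had 20 and 3 (22.7% and 18.4%, then 38.7% and 19.3%) and the Emx1-lineage 38 and 6 (25.4% and 23.8%, then 45.6% and 23.4%). With reads on mRNA rows as library size, which moved the median of all rows by -0.34, -0.43 and -0.16, the counts were 9 and 23, 6 and 27, and 24 and 11. The same population samples enter both references, so the sets of calls are not independent.

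Eif4ebp1 in brain EC had a log2 fold change of 3.62 (SE 0.09, adjusted p = 2.2e-12) over the transcriptome and 2.40 over the translatome. In the Emx1-lineage it was 0.26 over the transcriptome, which did not pass, and -1.01 over the translatome. Eif5a was 0.95 over the brain transcriptome in brain EC and 0.05 over the translatome, and Eif4e3 in kidney EC 1.30 and 0.23. Eef1e1 in brain EC was -1.77 over the translatome and -0.76 over the transcriptome, both called as lower. In kidney EC it was -0.65 over the translatome and 0.20 over the transcriptome, which did not pass.

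**Figure D5:**
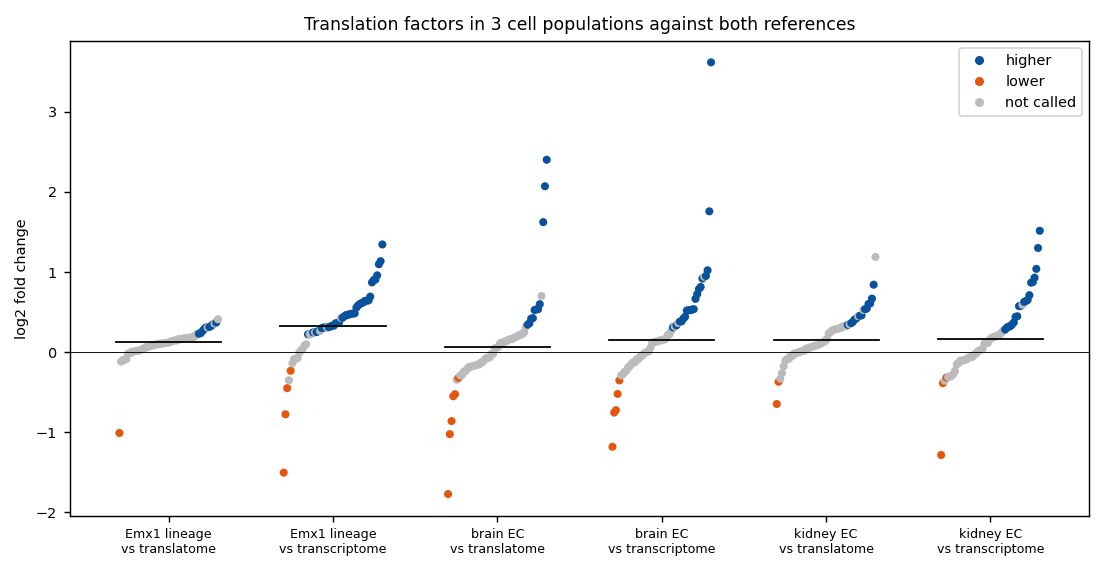
Log2 fold changes of the translation factors over 1 RPKM but Eef1a2 in the Emx1-lineage, brain EC and kidney EC against the translatome and the transcriptome of the organ, each point a gene in order of its value, the bar the median, and blue and orange the genes called higher and lower. Eif4ebp1 is the highest point in both brain EC columns, at 2.40 and 3.62. Under scaling to mRNA reads the split of calls turned to more lower than higher in all 4 EC columns.

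Of the 4 Argonaute genes, Eif2c3 was lower in the translatome of both organs, with 2.70, 1.93 and 2.28 RPKM in the brain transcriptome against 0.63, 0.72 and 0.74 RPKM in the brain translatome and log2 fold changes of -1.70 (SE 0.13) in brain and -0.97 (SE 0.12) in kidney, the latter lost with sequencing run in the fit. Eif2c4 and Eif2c1 were higher in the brain than in the kidney transcriptome by 2.45 and 1.47, and Eif2c2 lower by 0.63 on the log2 scale. Eif2c4 lay at 8.91, 8.77 and 9.40 RPKM in brain and at 2.09, 1.87 and 1.66 RPKM in kidney. Leaving these 4 out took the lower calls against the brain transcriptome from 9 to 6 in brain EC and from 6 to 4 in the Emx1-lineage. In the main fit no count of higher or lower calls changed by more than 1.5 times in any comparison.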

How the data were processed

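TruSeq v2 libraries of 21 samples were sequenced by the authors, who aligned reads with RUM (v. 2.04) to mouse GRCm38 (mm10) and made gene values with the rpkmforgenes script from UCSC refGene models. The strand setting was not given. Each deposited file held, for 23827 rows, read counts and RPKM per the file headers, where RPKM is reads per kilobase, scaled to the reads on mRNA rows. RPKM was printed and counts were tested.

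The members and gene lists were chosen with earlier results of these data known. Groups followed the labels. Rows with at least 1 read in the samples of a comparison were fitted with edgeR 4.0.16 (R 4.3.3), TMM scaling and the quasi-likelihood test, with Benjamini-Hochberg adjustment over all rows and a threshold of 0.001, in 12 comparisons of 6 samples, or 12 for interactions. DESeq2 1.42.0, RLE size factors, reads on mRNA rows as library size, at least 10 reads in 3 samples, 1 fit of all 21 samples, a replicate block and leaving out each library were alternatives. Sequencing run as a term and leaving out the 4 Argonaute genes were added after the data were seen. Scripts were tested on simulated data with a fixed spread. Of 100 changes of 0.5 on the log2 scale edgeR found 20 for brain and 29 for kidney translatome against transcriptome, and 3 for their interaction. Of 100 changes of 1 it found 93, 95 and 68. A gene that did not pass is thus not shown to be unchanged. The simulation for brain changed 200 of 19105 rows, while in the data 3625 rows were called higher and 3596 lower. The rates found in the simulation therefore need not hold for the tests on the data. Tables used pandas 2.3.3, and figures matplotlib 3.10.9.

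A rule set Eef1a1, Eef2, the most abundant gene of each role and, per comparison, up to 3 called genes at each end for tested values. Not all of these are printed, and Eef1a1 and Eef2 only for translatome against transcriptome. In the other comparisons neither passed in the main edgeR fit. By DESeq2 both passed in both interactions and Eef2 in kidney EC against the translatome. Eef1a1 also passed by DESeq2 in brain against kidney transcriptome, brain EC against kidney EC and both brain references, and kidney EC against the transcriptome. Other values in the text were chosen after they were seen. Transcriptome and translatome libraries of the same number came from the same tissue sample, and their deviations from the group means correlated at 0.652, 0.571 and 0.656 in brain and at 0.775, 0.734 and 0.765 in kidney over rows. Brain EC and kidney EC samples of the same number correlated at 0.262, 0.179 and 0.165, and the replicate block took them as paired, from the data only. Emx1-lineage and brain transcriptome samples, which came from different crosses, correlated at 0.231, 0.0482 and 0.125. Values of this size therefore do not establish that the EC samples were paired. In other comparisons samples shared only a number, so the replicate block there paired samples by number alone. Nothing says how far samples of a group were separate litters, so p-values measure the spread between these samples. Depth was 21760652 to 79231692 reads per sample. Coordinates were from GENCODE vM21 and sequences from RefSeq (GRCm38.p6).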

Additional observations from a re-analysis of the deposited data

Results flagged for a closer look

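The fold change of translatome over transcriptome differed between the organs, by the interaction test, for 14 genes. It was higher in brain by a log2 difference of 0.79 for Eif4a2, 0.66 for Eif4g1, 0.64 for Eif5b, 0.59 for Eif3g, 0.58 for Eif3d, 0.57 for Eif6, 0.47 for Eif3c, 0.46 for Eif2b5, 0.44 for Eif4h, 0.43 for Eif4g3 and 0.42 for Eif3i. It was lower in brain for Eif4ebp3 (-1.01), Eif5a2 (-0.80) and Eif4e3 (-0.74). With sequencing run in the fit Eif4a2, Eif3g, Eif4e3 and Eif5a2 passed, and all 14 had the same sign.

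The fold change of EC over organ translatome differed between the organs for 13 genes. It was higher in brain for Eif4ebp1 (1.97), Eif2ak2 (1.75), Eif4ebp3 (1.12), Eef2k (0.58), Eif2ak4 (0.54) and Eif1a (0.50). It was lower in brain for Eef1e1 (-1.10), Eif1b (-0.89), Eif1 (-0.66), Eif4a2 (-0.63), Eif4g2 (-0.60), Eif4e (-0.45) and Eif5 (-0.40). Each EC group was sequenced in a run of its own, so run and group cannot be told apart in these values.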

How the results depend on the processing

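Of 2612 values of named genes under alternatives, 2456 kept direction and side of the threshold, 85 lost and 68 gained a call and 3 reversed: with reads on mRNA rows as library size Eif2b5 was -0.017 in kidney EC against the translatome, and Eif2b5 and Eif3f were -0.40 and -0.41 against the transcriptome. These values covered 197 pairs of named gene and comparison, not every gene printed in the text. Among all genes called in the main fit, that library size changed the sign of 6 in kidney EC and 2 in brain EC against the transcriptome. It also changed the sign of 1 in kidney EC against the translatome. The cause of these changes and of those below was not tested.

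With DESeq2 the counts of genes called were 10 lower for brain translatome against transcriptome, 24 higher and 5 lower for its difference from kidney, 11 lower in brain EC and 24 higher in kidney EC against the translatome, 21 lower for the difference of those, and 5 lower in kidney EC against the transcriptome. With reads on mRNA rows as library size they were 5 higher for brain against kidney transcriptome, 3 higher and 26 lower in brain EC and 2 higher and 15 lower in kidney EC against the translatome, 9 higher and 23 lower in brain EC, 6 higher and 27 lower in kidney EC and 24 higher and 11 lower in the Emx1-lineage against the transcriptome, and 4 higher in the Emx1-lineage against the translatome. In 1 fit of all 21 samples they were 13 lower in brain EC and 22 higher and 4 lower in kidney EC against the translatome, 10 higher in brain EC against kidney EC, and 8 lower in kidney EC against the transcriptome. With at least 10 reads in 3 samples 4 were higher in the Emx1-lineage against the translatome. With the replicate block, which pairs samples of the same number, 10 were lower in brain and 28 in kidney for translatome against transcriptome. For the difference 25 were higher and 6 lower. In the Emx1-lineage against the translatome, where samples shared only a number, 4 were higher. With sequencing run in the fit 2 were higher and 2 lower for that difference.

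Leaving out 1 library gave 16 to 19 higher and 6 to 7 lower for brain translatome against transcriptome, 10 to 13 and 17 to 19 for kidney, 7 to 11 and 2 to 4 for their difference, 7 to 10 and 28 to 33 for brain against kidney transcriptome, 9 to 13 and 6 to 10 for brain EC and 6 to 13 and 1 to 3 for kidney EC against the translatome, 5 to 6 and 5 to 8 for their difference, 4 to 10 and 1 for the Emx1-lineage, 4 to 5 and 18 to 23 for brain EC against kidney EC, and 16 to 20 and 6 to 10, 14 to 22 and 2 to 3, and 32 to 39 and 4 to 7 for brain EC, kidney EC and the Emx1-lineage against the transcriptome. Depth limits Eif3j2, with 4 to 44 reads per library, and Eef1a2 in kidney, with 0 to 8.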
